A study of Mus musculus with 6 samples.

Results

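The genes described here make cholesterol, control its synthesis through the sterol-sensing transcription factor SREBP2, and move cholesterol inside the cell. The list held 31 genes, chosen by symbol in pathway order from acetyl-CoA to cholesterol. A gene counted as measured where an array probe set (a group of short probes read as 1 value) was annotated to that gene alone, and 27 of the 31 were measured. Each was represented by its brightest probe set. Acat2, Insig1, Mbtps2 and Soat2 had no probe set annotated to them alone. In the whole series 12393 genes had such a probe set, and 8047 passed a filter on dim probe sets, among them all 27. The liver came from male mice aged 12 weeks, 3 of them lacking chromogranin A (the Chga knockout) and 3 wild type. RNA was measured on Affymetrix arrays, 1 array per sample. Chromogranin A is a secretory granule protein of neuroendocrine cells and the precursor of several peptides. The labels call the mutant animals a chromogranin A knockout, with no tissue restriction named, and give neither the genetic background, feeding state nor hour of dissection of either group.

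Cholesterol synthesis begins in the cytosol, where acetyl units are joined and reduced to mevalonate, which is phosphorylated and decarboxylated to isoprenoid diphosphates. Squalene synthase joins a pair of farnesyl diphosphates and commits them to sterols, and a series of membrane enzymes of the endoplasmic reticulum turns squalene into lanosterol and then cholesterol. When sterol in that membrane is low, the escort protein SCAP carries SREBP2 to the Golgi, where proteases release its active part, which switches on the genes of the pathway; INSIG proteins hold SCAP back when sterol is plentiful. The liver also takes up lipoprotein cholesterol, which NPC2 and NPC1 pass out of the lysosome.

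The arrays were much alike, with Pearson's r across probe sets of 0.933 to 0.948 within groups and 0.933 to 0.943 across groups. Between 64.4% (knockout replicate 2) and 76.9% (wild-type replicate 3) of probe sets lay above a background reference taken from bacterial control probe sets. The only Chga probe set was dim, read as high as 231 in a knockout array, and does not check the group labels. The tissue label was checked with hepatocyte markers, of which 9 of 9 measured genes lay above background on all arrays. Over all 13576 kept probe sets the median log2 change was -0.018, and 51 (0.376%) passed an adjusted p of 0.05 in the limma fit.

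Genes of the late, sterol-making part of the pathway read higher in knockout liver in their means, but no gene of the list passed the test over all probe sets. All 11 sterol steps from Fdft1 to Dhcr7 had a higher mean in knockout arrays, by log2 changes between 0.17 and 1.30 with a median of 0.39. The earlier mevalonate steps were mixed, with 5 of 7 higher and a median of 0.096. Of the 4 measured regulators of SREBP, 3 read lower, and Npc1, which exports cholesterol from lysosomes, had the lowest change of the list at -0.58. Over the 27 genes 20 were higher and 7 lower, with a median of 0.17.

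Each change is the knockout mean minus the wild-type mean of log2(intensity + 16), with the standard error of the fit and 3 arrays in each group. 0 of the 27 passed an adjusted p of 0.05 (limma, Benjamini-Hochberg over all kept probe sets). At an unadjusted p under 0.05, 6 of 27 were higher (Fdps, Fdft1, Sqle, Lss, Msmo1 and Acss2), where 4.38% of all kept probe sets were, and 1 of 27 was lower (Npc1), where 5.58% of all were. All 3 knockout arrays lay above all 3 wild-type arrays for 5 of 27 (Fdps, Sqle, Msmo1, Acss2 and Mvd), against 7.44% of all kept probe sets, and below them for 2 of 27 (Npc1 and Mbtps1), against 8.12%. The counts of lower genes are near the background shares. With 3 arrays in each group, an exact permutation test of a single value cannot give a p below 0.1. The labels give 3 mice in each group with 1 array each, so the p-values rest on the spread among 6 arrays, in which animal and technical variation cannot be told apart. In whole liver RNA, fewer cells of a type and less RNA per cell cannot be told apart.

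**Figure D1:**
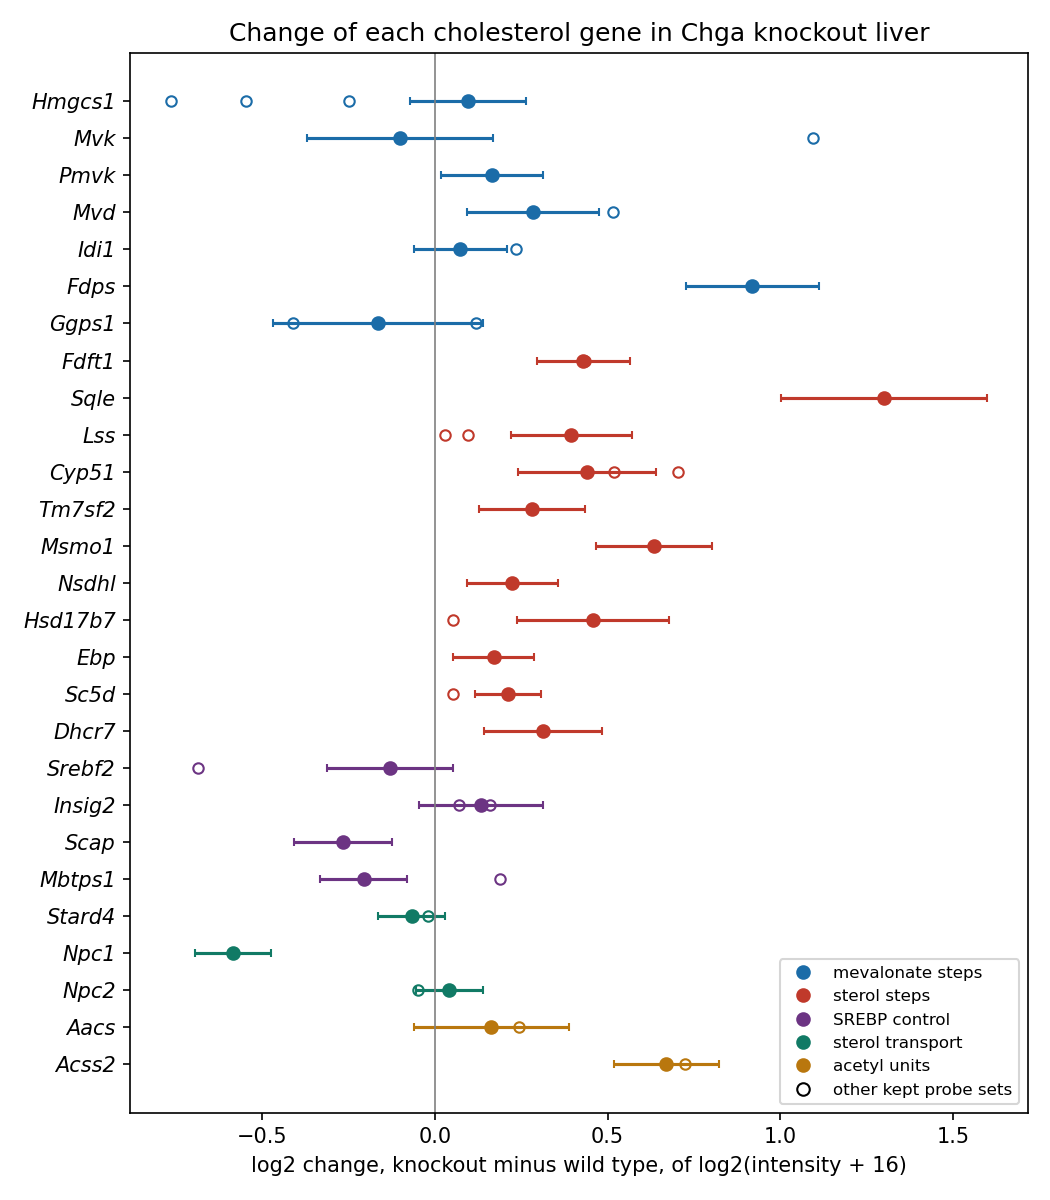
Log2 change (knockout minus wild type) of the 27 measured cholesterol genes in pathway order, 3 arrays per group. Filled circles are the brightest probe set of a gene with its standard error, open circles are its other kept probe sets, and colours mark the role. The sterol steps (red) all lie right of 0, from 0.17 to 1.30, while the Hmgcs1 probe sets spread from -0.76 to 0.096.

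SREBPs bind sterol regulatory elements in promoters, usually next to sites for the CCAAT-binding factor NF-Y. The promoters of 6 genes are shown because their readings turn up in the results: Hmgcs1, whose probe sets disagreed, and Mvd, Lss, Cyp51, Msmo1 and Acss2, whose means were higher in knockout liver. Each is the 250 bases before the RefSeq transcription start (GRCm38.p6), read 5′ to 3′ on the gene's strand. Capitals mark a sterol regulatory element core (TCACNCCAC) or a CCAAT box on either strand, where ATTGG is the box on the opposite strand. Hmgcs1 lies at chr13:119690101-119690350 (plus strand), Mvd at chr8:122443423-122443672 (minus strand), Lss at chr10:76531355-76531604 (plus strand), Cyp51 at chr5:4104698-4104947 (minus strand), Msmo1 at chr8:64733579-64733828 (minus strand) and Acss2 at chr2:155517793-155518042 (plus strand).
Hmgcs1: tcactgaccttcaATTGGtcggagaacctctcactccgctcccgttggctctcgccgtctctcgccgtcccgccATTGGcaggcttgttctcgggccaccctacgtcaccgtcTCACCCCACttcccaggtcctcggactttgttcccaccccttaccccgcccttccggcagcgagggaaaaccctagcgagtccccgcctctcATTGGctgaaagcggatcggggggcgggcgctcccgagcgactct
Mvd: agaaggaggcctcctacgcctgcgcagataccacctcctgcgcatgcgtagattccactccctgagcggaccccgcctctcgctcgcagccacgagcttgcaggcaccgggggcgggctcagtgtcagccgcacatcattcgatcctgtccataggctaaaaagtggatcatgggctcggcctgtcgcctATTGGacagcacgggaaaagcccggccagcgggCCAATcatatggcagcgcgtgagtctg
Lss: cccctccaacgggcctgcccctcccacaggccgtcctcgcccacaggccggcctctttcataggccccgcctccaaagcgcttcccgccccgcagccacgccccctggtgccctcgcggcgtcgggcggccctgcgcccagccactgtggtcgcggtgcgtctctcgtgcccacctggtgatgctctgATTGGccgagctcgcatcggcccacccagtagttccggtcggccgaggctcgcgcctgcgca
Cyp51: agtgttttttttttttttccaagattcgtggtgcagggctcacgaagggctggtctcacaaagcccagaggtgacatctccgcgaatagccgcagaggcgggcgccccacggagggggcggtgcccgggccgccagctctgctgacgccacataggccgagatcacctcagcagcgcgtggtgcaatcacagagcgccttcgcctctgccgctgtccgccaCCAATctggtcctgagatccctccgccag
Msmo1: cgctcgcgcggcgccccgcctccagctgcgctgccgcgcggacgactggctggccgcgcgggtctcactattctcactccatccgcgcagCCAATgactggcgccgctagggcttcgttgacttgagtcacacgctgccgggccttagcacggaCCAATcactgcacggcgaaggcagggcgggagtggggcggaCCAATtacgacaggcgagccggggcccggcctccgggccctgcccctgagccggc
Acss2: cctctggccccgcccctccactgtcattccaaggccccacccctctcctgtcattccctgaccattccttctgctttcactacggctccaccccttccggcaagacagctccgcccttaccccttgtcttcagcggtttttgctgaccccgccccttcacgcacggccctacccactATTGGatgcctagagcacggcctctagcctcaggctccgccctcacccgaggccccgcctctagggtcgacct

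The RefSeq promoter table used here had an entry for 25 of the 31 genes. Fdps, Fdft1, Sqle, Stard4, Npc1 and Soat2 were not matched in it. The promoters of Sqle and Fdps (largest rises of the list) and of Npc1 (largest fall) were thus not analysed here. Among these 25, only Hmgcs1 held the sterol regulatory element core, as TCACCCCAC from 137 to 129 bases before the start; 1.05% of all 32851 promoter windows of this length held that core on either strand. A CCAAT box was in 20 of the 25 genes and in 15 of the 16 synthesis genes with a promoter (mevalonate and sterol steps), against 33.8% of all windows and 39.5% of 17492 protein-coding genes. In the windows shown, Hmgcs1 and Msmo1 have 3 such boxes each, Mvd has 2, and Lss, Cyp51 and Acss2 have 1 each. The GC box GGGCGG, the core of sites for Sp1, was in 21 of the 25 genes against 45.8% of coding genes. Variants of the sterol regulatory element core were not searched for.

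The mevalonate steps were measured for 7 of 8 genes. Fdps is the synthase of farnesyl diphosphate at the branch point to sterols and protein prenylation. On the brightest probe sets it had the largest change of the 7. Its values in knockout replicates 1 to 3 were 20177, 26065 and 34613, and in wild-type replicates 1 to 3 were 15247, 16084 and 10954 (arbitrary intensity units). Every knockout array lay above every wild-type array, with knockout replicate 3 highest and wild-type replicate 3 lowest. The means were 26952 ± 7259 and 14095 ± 2752 (SD, n = 3 each), a log2 change of 0.92 ± 0.19 (1.89-fold; adjusted p = 0.0786). Without knockout replicate 1 the change was 1.11 and the adjusted p 0.0324, past the threshold; with knockout replicate 3 left out it was 0.72. A second Fdps probe set lay below background on all 6 arrays, and averaging it in gave 0.46, with an unadjusted p above 0.05.

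Mvd, the decarboxylase that makes isopentenyl diphosphate, also had groups that did not overlap. It read 1225, 989 and 1010 in knockout and 875, 874 and 876 in wild type. The wild-type arrays were almost equal (SD 1.13) and the knockout arrays spread more widely (SD 130). The log2 change was 0.28 ± 0.19 (adjusted p = 0.666), and its other probe set, at 0.52 ± 0.28, had overlapping groups.

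Hmgcs1, the cytosolic HMG-CoA synthase and a standard SREBP2 target, differed in sign and size between its 4 probe sets. The brightest read 24192, 24517 and 32465 in knockout and 26358, 30873 and 19364 in wild-type arrays. The groups overlapped, and the log2 change was 0.096 ± 0.17 (adjusted p = 0.888). The next brightest also overlapped, at -0.25 ± 0.16 (adjusted p = 0.662). On the 2 dimmest, every knockout array lay below every wild-type array. The brighter of these read 11148, 10960 and 14466 in knockout against 16326, 20108 and 16859 in wild type, a change of -0.55 ± 0.13 (adjusted p = 0.125). The dimmest read 3131, 3112 and 3674 against 5737, 6911 and 4454, a change of -0.76 ± 0.16 (adjusted p = 0.0853). On all 4 probe sets knockout replicate 3 was the highest knockout array and wild-type replicate 2 the highest wild-type array. The direction for Hmgcs1 thus rests on the choice of probe set, and averaging the probe sets gave -0.37. The sources used here do not give where these probe sets lie along the transcript.

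**Figure D2:**
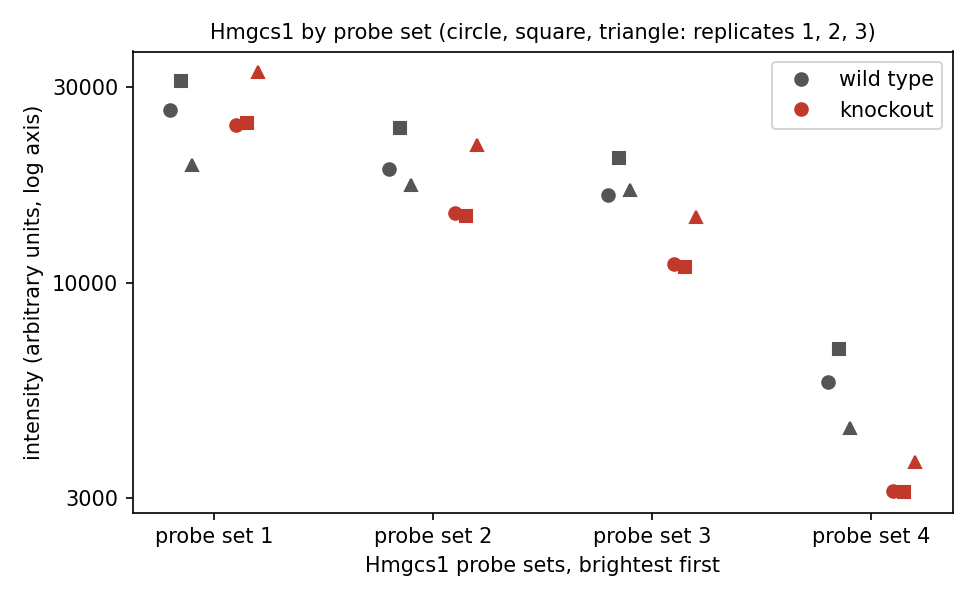
Intensity of the 4 Hmgcs1 probe sets on each array (log axis, arbitrary units), wild type in grey and knockout in red. The brightest probe set has overlapping groups, while in the 2 dimmest every knockout array lies below every wild-type array; heights of different probe sets are not comparable.

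The remaining mevalonate steps were measured with small or split differences. Pmvk, which adds the second phosphate to mevalonate, was at 0.16 ± 0.15, and Idi1, which isomerises isopentenyl diphosphate, at 0.073 ± 0.14. Mvk, the mevalonate kinase, was at -0.10 ± 0.27 on its brightest probe set. Its dimmer probe set pointed the other way, with 623, 709 and 1047 in knockout and 554, 428 and 184 in wild type. Those groups did not overlap, and the change was 1.09 ± 0.41 (adjusted p = 0.401). Ggps1, which makes geranylgeranyl diphosphate for protein prenylation rather than sterols, was at -0.16 ± 0.31, with its other tested probe sets at 0.12 and -0.41. Adjusted p-values of these brightest probe sets ran from 0.758 to 0.936. Without wild-type replicate 3 only 3 of the 7 mevalonate steps were higher and their median was -0.080.

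The sterol steps were all measured, 11 of 11. Sqle, the squalene epoxidase and a rate-controlling oxidation of the pathway, had the largest change of the list. It read 5603, 4966 and 8948 in knockout and 3258, 3322 and 1521 in wild type. Every knockout array was above every wild-type array, and the extremes were again knockout replicate 3 and wild-type replicate 3. The means were 6506 ± 2139 and 2700.3 ± 1022 (SD, n = 3 each), a log2 change of 1.30 ± 0.30 (2.46-fold; adjusted p = 0.113). Leaving out 1 array at a time gave changes from 0.93 to 1.49.

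Msmo1, which removes methyl groups from lanosterol's derivatives, read 26335, 28430 and 33495 in knockout and 19562, 23941 and 14311 in wild type. The groups did not overlap, though the lowest knockout array and the highest wild-type array were close. The means were 29420 ± 3681 and 19271 ± 4822 (SD, n = 3 each), a change of 0.63 ± 0.17 (1.55-fold; adjusted p = 0.174). Fdft1, the squalene synthase, read 17270, 20343 and 23822 in knockout and 13745, 17384 and 14322 in wild type. Here knockout replicate 1 lay just under wild-type replicate 2, so the groups overlapped. The change was 0.43 ± 0.13 (1.35-fold; adjusted p = 0.280), and a second kept probe set gave 0.43 ± 0.16. Its 2 other probe sets were too dim to be kept and tested, above background on 2 and 1 of the 6 arrays, at log2 changes of 2.01 and 1.56; averaging all 4 gave 1.11.

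Lss, which cyclises oxidosqualene to lanosterol, read 3576, 2485 and 3733 in knockout and 2208, 2714 and 2426 in wild type. Knockout replicate 2 sat within the wild-type range while the other 2 knockout arrays were above it. The change was 0.39 ± 0.18 (adjusted p = 0.496), and 2 dimmer probe sets were at 0.10 and 0.03; averaging the 3 gave 0.17. Cyp51, the lanosterol demethylase, read 5706, 6927 and 9478 in knockout and 6133, 5931 and 4108 in wild type, a change of 0.44 ± 0.20 (adjusted p = 0.502). Its second probe set had groups that did not overlap, at 2514, 2501 and 3375 against 2055, 2107 and 1651. That difference was 0.52 ± 0.17 (adjusted p = 0.314). On the brightest probe set the change was 0.24 without knockout replicate 3 and 0.26 without wild-type replicate 3.

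**Figure D3:**
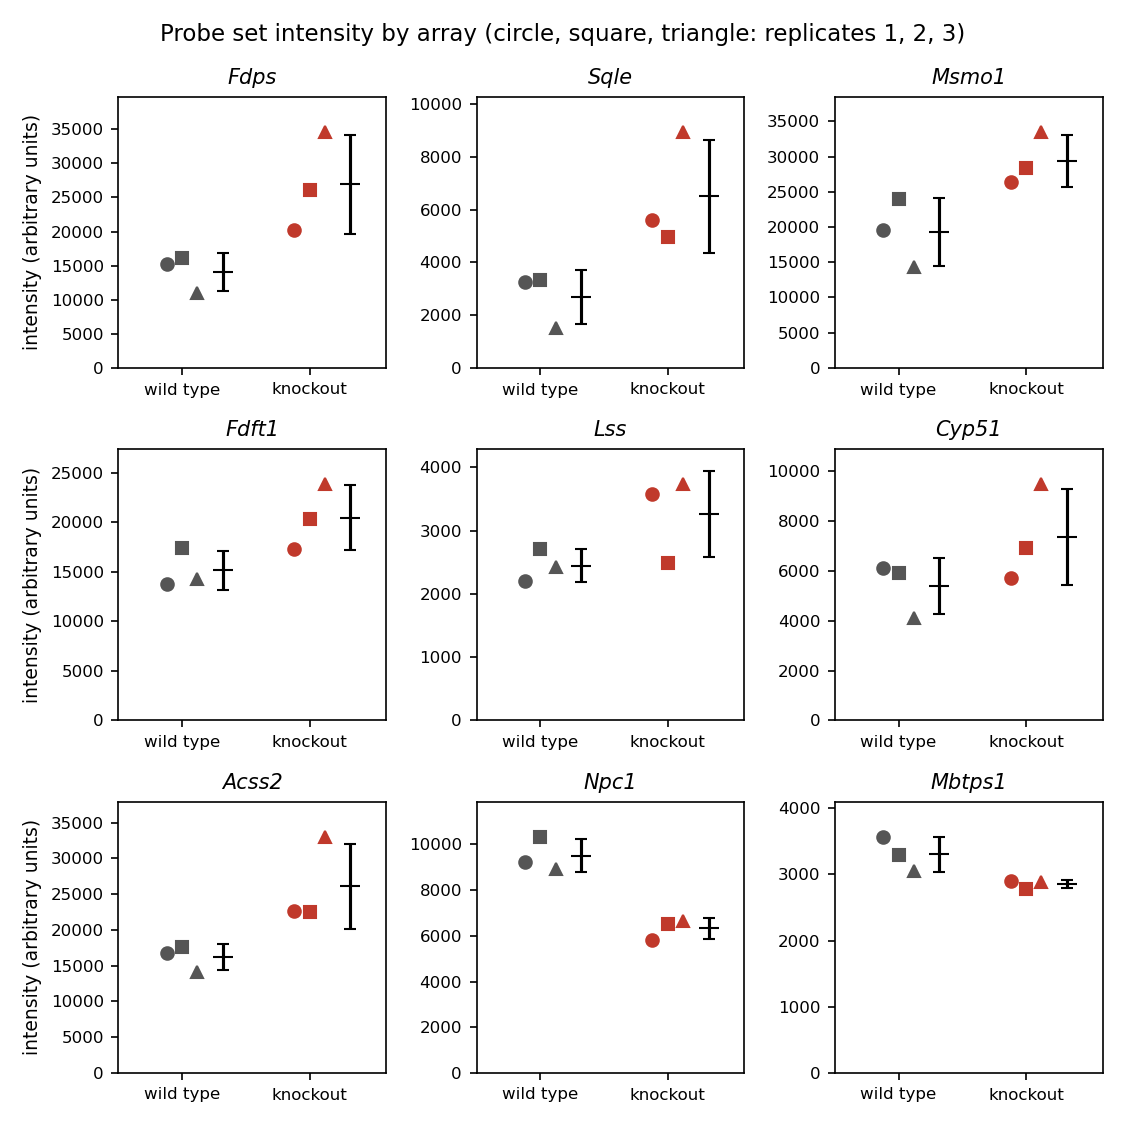
Intensity (arbitrary units, axis from 0) of 9 cholesterol genes on each array; wild type in grey, knockout in red, bars the mean and SD over 3 arrays. Fdps, Sqle, Msmo1 and Acss2 have all knockout arrays above all wild-type arrays, Npc1 and Mbtps1 have them below, and Fdft1, Lss and Cyp51 overlap.

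The other 6 sterol enzymes had overlapping groups in each. Hsd17b7, a ketosteroid reductase, was at 0.46 ± 0.22 with knockout replicates 2 and 3 at 3607 and 3707 and knockout replicate 1 at 1976, below the 2076 to 2247 of wild type. A second Hsd17b7 probe set gave 0.052. Dhcr7, which carries out the reduction of 7-dehydrocholesterol, was at 0.31 ± 0.17, and Tm7sf2, a sterol reductase, at 0.28 ± 0.15. Nsdhl, which oxidises and decarboxylates the sterol ring, was at 0.22 ± 0.13 with knockout replicate 3 at 16630 and all other arrays between 11338 and 12825. Sc5d, the lathosterol desaturase, was at 0.21 ± 0.096, and Ebp, the sterol isomerase, at 0.17 ± 0.12. Adjusted p-values of these 6 ran from 0.502 to 0.673. Several of these sizes rest on 1 array: without knockout replicate 3 the changes were 0.13 for Dhcr7, 0.14 for Tm7sf2, 0.074 for Nsdhl, 0.058 for Ebp and 0.30 for Hsd17b7. Without knockout replicate 1 Hsd17b7 was at 0.75, and without knockout replicate 2 Nsdhl was at 0.34. Without wild-type replicate 3 Tm7sf2 was at 0.18 and Ebp at 0.089, and without wild-type replicate 2 Dhcr7 was at 0.21. Averaging all probe sets of a gene gave 0.25 for Hsd17b7 and 0.13 for Sc5d.

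SREBP control was measured for 4 of 6 genes. Srebf2, which encodes SREBP2, read 1444, 1185 and 1264 in knockout and 1696, 1312 and 1275 in wild type. The groups overlapped, and the change was -0.13 ± 0.18 (adjusted p = 0.854). A dimmer Srebf2 probe set read 269, 582 and 565 against 712, 693 and 781, lower in all 3 knockout arrays, with a change of -0.69 ± 0.33 (adjusted p = 0.539). Without wild-type replicate 1 the brightest gave -0.00050, and averaging both gave -0.41. Scap, the sterol-sensing escort, read 5007, 5770 and 7169 in knockout and 7678, 6567 and 7178 in wild type. Knockout replicate 3 reached the wild-type range and the other 2 did not; the change was -0.27 ± 0.14 (adjusted p = 0.581), or -0.15 without knockout replicate 1 and -0.41 without knockout replicate 3.

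Mbtps1, the Golgi protease that makes the initial cut in SREBP, read 2896, 2777 and 2889 in knockout and 3567, 3297 and 3046 in wild type. All knockout arrays were lower, in a narrow band (2854 ± 66.6 against 3303 ± 260, SD, n = 3 each). The change was -0.21 ± 0.13 (adjusted p = 0.631), and a dimmer probe set gave 0.19 with overlapping groups. Insig2, which retains SCAP in the endoplasmic reticulum, read 17424, 10532 and 11458 in knockout and 12127, 13169 and 9969 in wild type. Only knockout replicate 1 was above the wild-type range. The change was 0.13 ± 0.18 (adjusted p = 0.846), with 2 further probe sets at 0.070 and 0.16, and without knockout replicate 1 it was -0.088.

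Among the 3 measured transport genes, Npc1 came closest to the threshold. It read 5819, 6514 and 6653 in knockout and 9237, 10328 and 8943 in wild type. The groups were well separated and neither was wide. The means were 6329 ± 447 and 9503 ± 730 (SD, n = 3 each), a change of -0.58 ± 0.11, or 1.50-fold lower (adjusted p = 0.0541). It passed the adjusted threshold under 3 of 17 alternative settings, with a pseudocount 16 times the main one (adjusted p = 0.0471), with the upper 40% of probe sets kept (0.0428) and with array weights (0.0435). Over the 17 settings its adjusted p ran from 0.0428 to 0.282, and its unadjusted p was under 0.05 in each. Npc2, the soluble partner that hands cholesterol to NPC1 in the lysosome, was at 0.041 ± 0.097. Stard4, a cytosolic sterol carrier that is itself an SREBP2 target, was at -0.068 ± 0.098. Their knockout and wild-type arrays overlapped on both probe sets of each gene.

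Acss2, which makes cytosolic acetyl-CoA from acetate, read higher as the sterol enzymes did. It read 22672, 22521 and 32997 in knockout and 16817, 17551 and 14146 in wild type. The groups did not overlap, and knockout replicate 3 stood well above the other 2 knockout arrays. The means were 26063 ± 6005 and 16171 ± 1792 (SD, n = 3 each), a change of 0.67 ± 0.15 (1.59-fold; adjusted p = 0.105). A second probe set gave 0.72 ± 0.20, again with separate groups. Aacs, which activates acetoacetate for lipid synthesis, was at 0.16 ± 0.22 (adjusted p = 0.850), and without wild-type replicate 3 at -0.048.

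The spread within groups had a common shape. Knockout replicate 3 was the highest of the 6 arrays for 15 of 27 genes (55.6%), and for 10 of the 11 sterol steps, while over all kept probe sets it was highest for 17.8%. Wild-type replicate 3 was the lowest of the 6 for 13 of 27 genes (48.1%), against 13.4% of all kept probe sets. Measured from the wild-type mean, the median deviation of the sterol steps was 0.15, 0.24 and 0.66 in knockout replicates 1 to 3 and 0.053, 0.13 and -0.11 in the wild-type replicates. The same medians over all kept probe sets lay between -0.021 and 0.020 on each array. Without knockout replicate 3 all 11 sterol steps were still higher, with a median of 0.24. Without wild-type replicate 3 all 11 were higher, with a median of 0.32. Each of these fits still held the other of these arrays, and leaving out both together was not tested. The 5′ to 3′ ratio of the GAPDH control, a sign of RNA quality, was 1.29 on knockout replicate 3 and 1.29 on wild-type replicate 3, and between 1.23 and 1.26 on the other 4 arrays. The same ratio of the actin control did not set these arrays apart, at 0.360 on knockout replicate 3 and 0.366 on wild-type replicate 3 against 0.351 to 0.366 on the others. The part of RNA quality in the pattern was not tested.

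**Figure D4:**
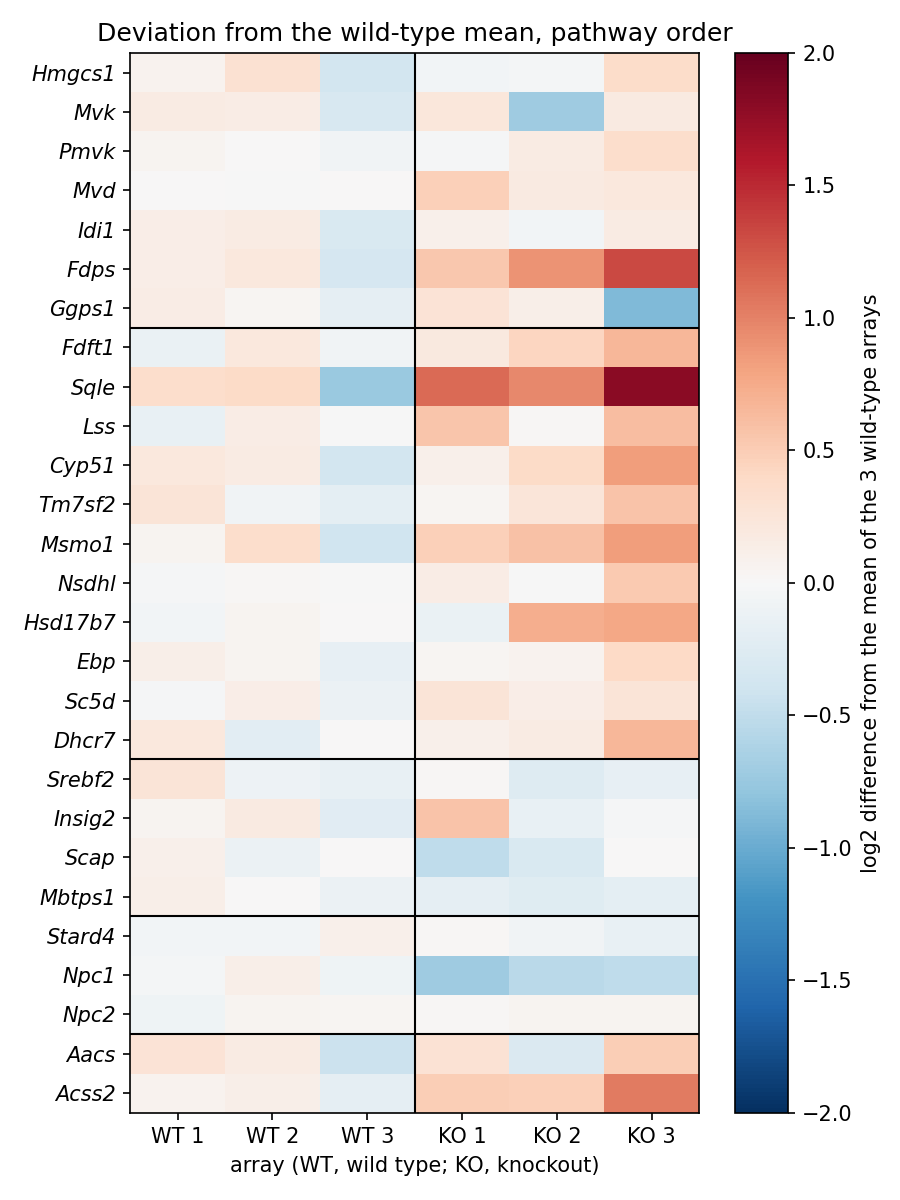
Deviation of each cholesterol gene on each array from the mean of the 3 wild-type arrays (log2 scale, red above and blue below), in pathway order with lines between the roles. Knockout replicate 3 is the reddest column through the sterol steps (median 0.66), and Npc1 is blue in all 3 knockout arrays.

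Other lipid pathways were set beside these genes, each as a list with its counts and median from the same fit. Fatty acid synthesis, which uses the same cytosolic acetyl-CoA, had 16 of 18 genes higher and a median of 0.47. In this list 3 genes rose past the adjusted threshold: Fasn, the fatty acid synthase (1.58 ± 0.20, adjusted p = 0.00697), Mid1ip1, which activates acetyl-CoA carboxylase (0.95 ± 0.16, adjusted p = 0.0413), and Acly, which makes acetyl-CoA from citrate (0.80 ± 0.14, adjusted p = 0.0413). Over all kept probe sets 0.376% passed that threshold in either direction. At an unadjusted p under 0.05 in the limma fit, 8 of the 18 were higher and 0 lower, against 4.38% and 5.58% of all. All knockout arrays lay above all wild-type arrays for 8 of the 18, against 7.44%. Fasn read 22949, 16709 and 25934 in knockout and 6636, 9625 and 5843 in wild type, so its groups did not overlap. Me1, a source of NADPH, was at 0.71 ± 0.14 (adjusted p = 0.0709), and Gpam, which starts glycerolipid synthesis, at 0.51 ± 0.11 (adjusted p = 0.0744). The call of Fasn was lost under 1 of 17 alternatives, those of Mid1ip1 and Acly under 9 each; Acly was at 0.26 when its 5 probe sets were averaged. Without knockout replicate 1 the median of the list was 0.31.

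Of the LXR and sterol export list, 6 of 9 measured genes were lower. The adjusted threshold was passed by 1 of the 9, against 0.376% of all kept probe sets. At an unadjusted p under 0.05 in the limma fit, 1 was higher and 2 were lower, against 4.38% and 5.58% of all. Abcg8, a subunit of the pump that secretes cholesterol into bile, read 3813, 4340 and 4556 in knockout and 7722, 6350 and 7670 in wild type. It fell by 0.77 ± 0.13 on the log2 scale (adjusted p = 0.0369), a call lost under 6 of 17 alternatives: without the trend, with the replicate block, and without knockout replicate 1, knockout replicate 2, wild-type replicate 1 or wild-type replicate 3. Abcg5, its partner subunit, was at -0.42 ± 0.13 (adjusted p = 0.305), with all knockout arrays below wild type. Pltp, the phospholipid transfer protein, was at 1.13 ± 0.31 (adjusted p = 0.200), with knockout replicate 3 at 15409 and the other knockout arrays at 5527 and 5987. The median of this list was -0.15, and -0.038 without wild-type replicate 1.

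The ketone body branch shares acetoacetyl-CoA and HMG-CoA with the mevalonate steps but runs in mitochondria; its 4 measured genes were all lower, with a median of -0.25. Acat1, the mitochondrial thiolase, was at -0.32 ± 0.090 (adjusted p = 0.211) and Slc16a1, a transporter of ketone bodies and lactate, at -0.39 ± 0.17 (adjusted p = 0.470). Genes that use isoprenoids for prenylation, dolichol and ubiquinone had 2 of 11 higher and a median of -0.074, with Rabggta and Rabggtb, subunits of a Rab prenyltransferase, at -0.31 ± 0.21 and -0.16 ± 0.12. Factors of sterol-regulated degradation and retention in the endoplasmic reticulum had 8 of 10 higher and a median of 0.12; Pgrmc1, a heme-binding partner of sterol enzymes, was at 0.13 ± 0.072, and Sec23b, a coat protein of export vesicles, at 0.18 ± 0.12. Lipoprotein uptake and lysosomal sterol handling had 9 of 12 higher and a median of 0.097. There Lamp2, a lysosomal membrane protein, was at 0.25 ± 0.083 (adjusted p = 0.334), and Osbp, an oxysterol-binding transfer protein, at 0.25 ± 0.12. Bile acid synthesis had 9 of 13 higher and a median of 0.034, or 0.21 without wild-type replicate 1; Amacr, a racemase of side-chain shortening, was at -0.42 ± 0.12 (adjusted p = 0.249), and Baat, which conjugates bile acids, at 0.31 ± 0.10 (adjusted p = 0.282). In the limma fit 0 genes of these 5 lists passed the adjusted threshold; at an unadjusted p under 0.05 there were 3 lower in the ketone body branch, 1 higher in lipoprotein uptake, and 2 higher and 1 lower in bile acid synthesis. Over all kept probe sets 4.38% were higher and 5.58% lower at that p; 1 gene of 12 or of 13 lies near these shares.

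**Figure D5:**
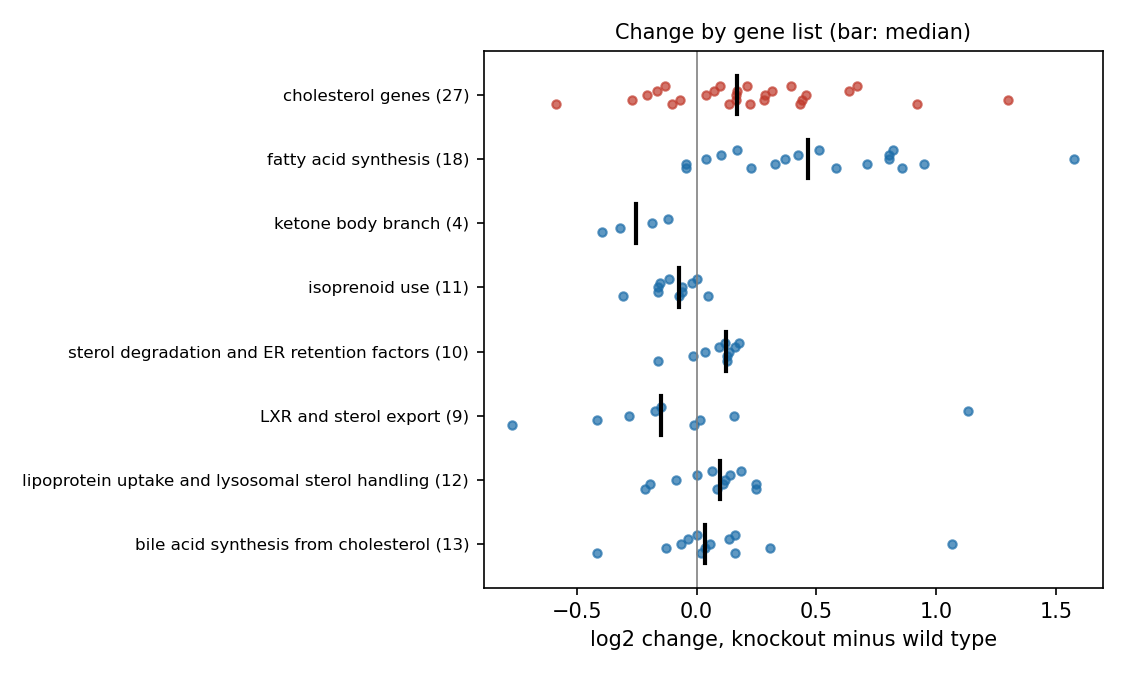
Log2 change (knockout minus wild type) of each measured gene by list, with the number measured in brackets and the median as a bar. Fatty acid synthesis has the highest median (0.47) and the ketone body branch the lowest (-0.25); the cholesterol genes have a median of 0.17 and range from -0.58 to 1.30.

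Markers of other liver cells were read for the same arrays, since whole liver holds all of these cells. Hepatocyte markers were higher for 8 of 9 kept genes, with a median of 0.11 and summed intensities of 1311460 to 1533450 in knockout and 1261370 to 1403130 in wild type. Kupffer cell and macrophage markers were lower for 10 of 11 kept genes (median -0.25), with sums of 20675 to 32709 in knockout and 25954 to 34365 in wild type, and Marco below background on all arrays. Stellate and matrix markers were lower for 6 of 6 kept genes (median -0.36), with sums of 20552 to 25834 against 24054 to 32191. Liver endothelial markers were lower for 5 of 7, with sums of 17281 to 18466 against 17473 to 18339. The summed ranges of these 4 cell types overlapped between the groups. Sums of linear intensity weigh bright genes most, and Dcn alone read 10760 to 17720 in the stellate list. The overlap of sums thus says little about the dimmer markers. In the limma fit 0 of their markers passed the adjusted threshold, and 3 (the matrix genes Col3a1, Lum and Reln) were lower at an unadjusted p under 0.05. Over all kept probe sets 5.58% were lower at that p. The hepatocyte, Kupffer cell, stellate and endothelial lists held 9, 11, 6 and 7 kept genes. Cholangiocyte, lymphocyte and adipocyte markers were above background on all 6 arrays for 0 of 4, 0 of 7 and 0 of 4 measured genes, with Epcam, Cd4 and Lep below it on every array. Neutrophil, erythroid and adrenal markers were above it throughout for 1 of 4, 1 of 3 and 1 of 4. Among these dim lists, sums did not overlap for neutrophil markers (1237 to 1714 in knockout, 956 to 1213 in wild type) and cholangiocyte markers (602 to 658 against 666 to 909). Of single kept probe sets, 7.44% lay wholly higher in knockout and 8.12% wholly lower. Only 2 of 4 neutrophil and 0 of 4 cholangiocyte genes passed the filter on dim probe sets. The part of other cell types in the readings of Npc1 and the sterol steps was not tested.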

How the data were processed

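Liver RNA of 6 male mice, 3 Chga knockout and 3 wild type, was extracted with a guanidinium thiocyanate kit and labelled with biotin, per the labels' protocols. The arrays were processed by the authors with GCOS 1.2, per the submitters' processing notes. The deposited table gives 1 linear intensity for each probe set and array, in arbitrary units. Their mean after trimming ran from 2501.32 to 2501.42, so the arrays share a scale; the sources used here give neither the scaling rule nor a genome build. Of 22626 probe sets other than controls, the platform annotation gave 20380 a single gene, 691 several and 1555 none; only those with a single gene were named.

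The test was limma 3.58.1 (R 4.3.3; lmFit, then eBayes with a trend on intensity) on log2(intensity + 16), without covariates, for all 6 arrays and the 13576 probe sets in the upper 60% by mean, with Benjamini-Hochberg adjustment over all of them at 0.05. The 16 added before taking log2 shrinks changes of dim probe sets. Their changes can still be large, as for Fdft1 (2.01 and 1.56 on dim probe sets, 0.43 on the brightest). The procedure was tested on simulated data whose spread was set by mean intensity alone, which is simpler than the real arrays. That test does not show how far the calls made here can be relied on. The background reference was the 95th percentile of 27 Bacillus subtilis control probe sets on each array. The number of arrays limits the precision. All 31 genes were named, and of each other list the genes past the threshold and the next 2 by p. Full array values were given for genes at an unadjusted p under 0.05, for those with separate groups and for the SREBP regulators. Probe set values beyond the brightest were added where a gene's probe sets differed or repeated a difference. The members and lists were chosen with earlier results of these data known. The labels do not say that replicate numbers pair animals, so these numbers were not used as pairs. Deviations from the group mean had r from -0.065 to -0.059 between same-numbered arrays of the groups. Between differently numbered arrays r ran from -0.020 to 0.076. Centring within each group ties these values together, so they do not settle whether animals were paired. Results were recomputed after quantile normalization or median centring, and with pseudocounts of 1, 64 and 256 in place of 16. They were also recomputed without the filter or with the upper 40% kept, without the trend, and with array weights. Further settings were a replicate block, gene means, and leaving out each array.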

Additional observations from a re-analysis of the deposited data

How the results depend on the processing

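The cholesterol genes' median stayed between 0.13 and 0.27 over 17 alternatives, and all 11 sterol steps stayed higher in each. Genes called numbered 1 with a pseudocount 16 times the main one, with the upper 40% kept and with array weights, and 0 to 1 with an array left out. Lower genes with separate groups numbered 1 after quantile normalization or median centring, and 2 to 4 with an array left out (4 without knockout replicate 1); lower genes at an unadjusted p under 0.05 numbered 2 with gene means, and 1 to 2 with an array left out (2 without knockout replicate 3). With an array left out, higher genes numbered 5 to 9 at that p and 5 to 10 with separate groups. Separate higher genes numbered 9, 10 and 8 without knockout replicate 1, knockout replicate 2 and wild-type replicate 2. Fewer arrays separate more easily. The shares over all kept probe sets were not computed with an array left out, so these counts of higher and lower genes have no background. Over all kept probe sets, calls numbered 85 with that pseudocount, 7 without the trend, 82 with array weights, 27 with the replicate block, and 21 to 57 with an array left out (21 and 23 without wild-type replicates 3 and 1). In the other lists, calls numbered 2 without a filter, 0 without the trend, 1 with the replicate block, 2 with gene means, and 1 to 3 with an array left out (1 without knockout replicate 1, wild-type replicate 1 or 3, and 2 without knockout replicate 2 or 3). Without the filter 22626 probe sets were tested, against 13576 in the main fit. The cause of the fewer calls was not tested. The replicate block changed no call of a cholesterol gene. With gene means the sign turned for Hmgcs1 (-0.37), Mvk (0.50), Ggps1 (0.19), Mbtps1 (0.23), Npc2 (-0.0034) and Aacs (-0.26). With an array left out it turned for Hmgcs1 (-0.090 to 0.25), Mvk (-0.26 to 0.21), Idi1 (-0.080 to 0.16), Ggps1 (-0.38 to 0.19), Insig2 (-0.088 to 0.27) and Aacs (-0.048 to 0.39). List medians with an array left out spanned 0.31 to 0.66 for fatty acid synthesis. Quantile normalization and median centring moved the median change of all probe sets by under 0.015.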
